A study of Mus musculus with 12 samples.

Results

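Emx1, Emx2, Pax6, Otx1, Otx2, Dmrta2 and Dmrt3 are 7 transcription factor genes that pattern the dorsal telencephalon, out of 21951 protein-coding genes in the annotation. They were chosen by name, and their H3K4me3 peaks were those within 5 kb of an annotated transcription start site (TSS) or over the gene body on GRCm38. These were 11 of 25339 peaks in the medial ganglionic eminence (MGE), 12 of 17284 in the lateral (LGE), 16 of 17752 in the caudal (CGE) and 33 of 21442 in the cortex (CTX). The tissue came from wild-type C57BL/6J mouse embryos, with no treatment, and several embryos were pooled for each sample. The age is E12.5 by the study's text, while the tissue protocol also names E14.5. CTX is somatosensory cortex, and each region had 2 biological replicates spread over 12 libraries in all (MGE 3, LGE 2, CGE 4, CTX 3). In CUT&Tag an antibody against the histone mark tethers a transposase to marked chromatin, and the tagged fragments are sequenced. The replicates were merged before peaks were called, so a region is 1 list and its values have no replicate error. No difference between regions could be set against the spread between replicates.

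H3K4me3 is deposited around the start sites of active and poised genes, and in the embryonic brain many developmental regulators carry it over wide CpG-rich stretches. In the early telencephalon a dorsal part, the pallium, gives rise to cortex and hippocampus, and a ventral part, the subpallium, gives rise to the ganglionic eminences. The homeobox genes Emx1, Emx2 and Pax6, the bicoid-class homeobox genes Otx1 and Otx2 and the DM-domain genes Dmrta2 and Dmrt3 take part in setting up pallial identity and its subdivisions, and several of them act against ventral programmes.

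Sequences that bear on the differences between lists are printed below 5′ to 3′ on the strand of the gene, from the GRCm38 genome, in lower case with every CpG dinucleotide in capitals. The Dmrta2 interval is the only peak of that gene in MGE, lies at chr4:109977679-109977975 on the plus strand upstream of the gene, and was under a peak in all 4 lists. The stretch labelled Emx1 promoter, chr6:85187188-85187437 on the plus strand, is the 250 bases before the annotated 5′ end. It was covered over 250 bases in LGE, 93 in CTX and none in MGE or CGE. The RefSeq promoter of Emx1, chr6:85187681-85187980, lies further inside and was covered over all its 300 bases in all 4 lists. The Emx1 intron interval at chr6:85191590-85191800 was a peak in CTX alone. The Otx1 interval is 300 bases at chr11:22007718-22008017 on the minus strand, upstream of the gene, in a peak shared by LGE, CGE and CTX with none in MGE. The Dmrt3 interval at chr19:25622499-25622713 on the plus strand is coding sequence of the last exon, shared by peaks of MGE, LGE and CGE with none in CTX.
Dmrta2 upstream interval: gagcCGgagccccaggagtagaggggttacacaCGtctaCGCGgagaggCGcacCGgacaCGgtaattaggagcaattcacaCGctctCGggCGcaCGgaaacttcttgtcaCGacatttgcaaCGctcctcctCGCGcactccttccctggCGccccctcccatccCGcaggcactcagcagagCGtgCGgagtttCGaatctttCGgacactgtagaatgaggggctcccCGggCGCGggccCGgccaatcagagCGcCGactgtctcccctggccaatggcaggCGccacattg
Emx1 promoter: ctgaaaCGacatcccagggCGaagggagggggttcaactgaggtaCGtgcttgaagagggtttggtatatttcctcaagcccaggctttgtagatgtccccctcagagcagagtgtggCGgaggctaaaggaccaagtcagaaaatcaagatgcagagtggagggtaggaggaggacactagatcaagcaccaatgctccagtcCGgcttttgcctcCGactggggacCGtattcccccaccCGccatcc
Emx1 intron interval: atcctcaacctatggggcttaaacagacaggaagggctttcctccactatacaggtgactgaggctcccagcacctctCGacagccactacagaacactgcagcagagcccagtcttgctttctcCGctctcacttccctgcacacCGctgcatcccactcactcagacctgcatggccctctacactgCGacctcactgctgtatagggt
Otx1 upstream interval: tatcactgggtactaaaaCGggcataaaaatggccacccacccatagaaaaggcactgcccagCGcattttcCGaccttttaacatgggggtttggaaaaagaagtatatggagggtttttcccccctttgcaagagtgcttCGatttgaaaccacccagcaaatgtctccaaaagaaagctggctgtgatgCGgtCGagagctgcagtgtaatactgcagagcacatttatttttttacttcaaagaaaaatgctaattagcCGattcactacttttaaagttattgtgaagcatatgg
Dmrt3 last exon interval: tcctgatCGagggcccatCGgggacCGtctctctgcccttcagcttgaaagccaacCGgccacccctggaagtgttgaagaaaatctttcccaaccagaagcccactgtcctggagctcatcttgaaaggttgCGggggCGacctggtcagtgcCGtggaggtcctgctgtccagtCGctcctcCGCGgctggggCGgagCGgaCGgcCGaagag

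The printed stretches differed in base composition. The Dmrta2 interval held 28 CpG dinucleotides, the Dmrt3 interval 14, the Emx1 promoter 8, the Otx1 interval 7 and the Emx1 intron interval 4. Observed over expected CpG was 0.937 in the Dmrta2 interval, 0.661 in the Dmrt3 interval and 0.521 in the Otx1 interval. It was 0.418 in the Emx1 promoter stretch and 0.267 in the Emx1 intron interval. The homeodomain core TAATTA, which reads the same on both strands, occurred in the Dmrta2 interval and in the Otx1 interval and not in the other 3.

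The lists differ in ways that touch every value below. The median peak width was 563 bp in MGE, 1168 bp in LGE and 1240 bp in CGE, with 701 bp in CTX, so covered bases run higher in LGE and CGE for most genes. For that reason the percentile of a gene among all protein-coding genes of its own list is given beside its covered bases. The lists do not give the reads under each peak, so the depth behind a value is unknown. The depths stated by the study are lowest for MGE, and the part of depth in the results was not tested. The tissue protocol also says that nuclei of the 4 regions were mixed in equal numbers, without saying for which reactions. A gene without a peak cannot be told apart from a marked gene below the detection limit, and a smaller share of marked cells cannot be told apart from less mark per cell.

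The 7 genes had a peak within 5 kb of a TSS in nearly every list. A peak lay within 5 kb of a TSS of 6 of the 7 in MGE (65.0% of all protein-coding genes), of 7 in LGE (64.2%) and of 7 in CGE (64.6%), and of 7 in CTX (63.8%), and 6 were marked in all 4 lists (61.3%). The exception was Dmrt3, which had no such peak in MGE. What set the lists apart was how much of each gene was covered. The median percentile of the 7 genes was 45.3 in MGE, 97.2 in LGE and 96.8 in CGE, with 98.5 in CTX. Percentiles above 90 were reached by 1 of the 7 in MGE (10.0% of all genes), 6 in LGE (9.99%) and 6 in CGE (10.0%), and 6 in CTX (9.99%). The gene above 90 in MGE was Otx2, which was also the gene below 90 in CTX, while Dmrt3 was the gene below 90 in LGE and CGE.

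**Figure D1:**
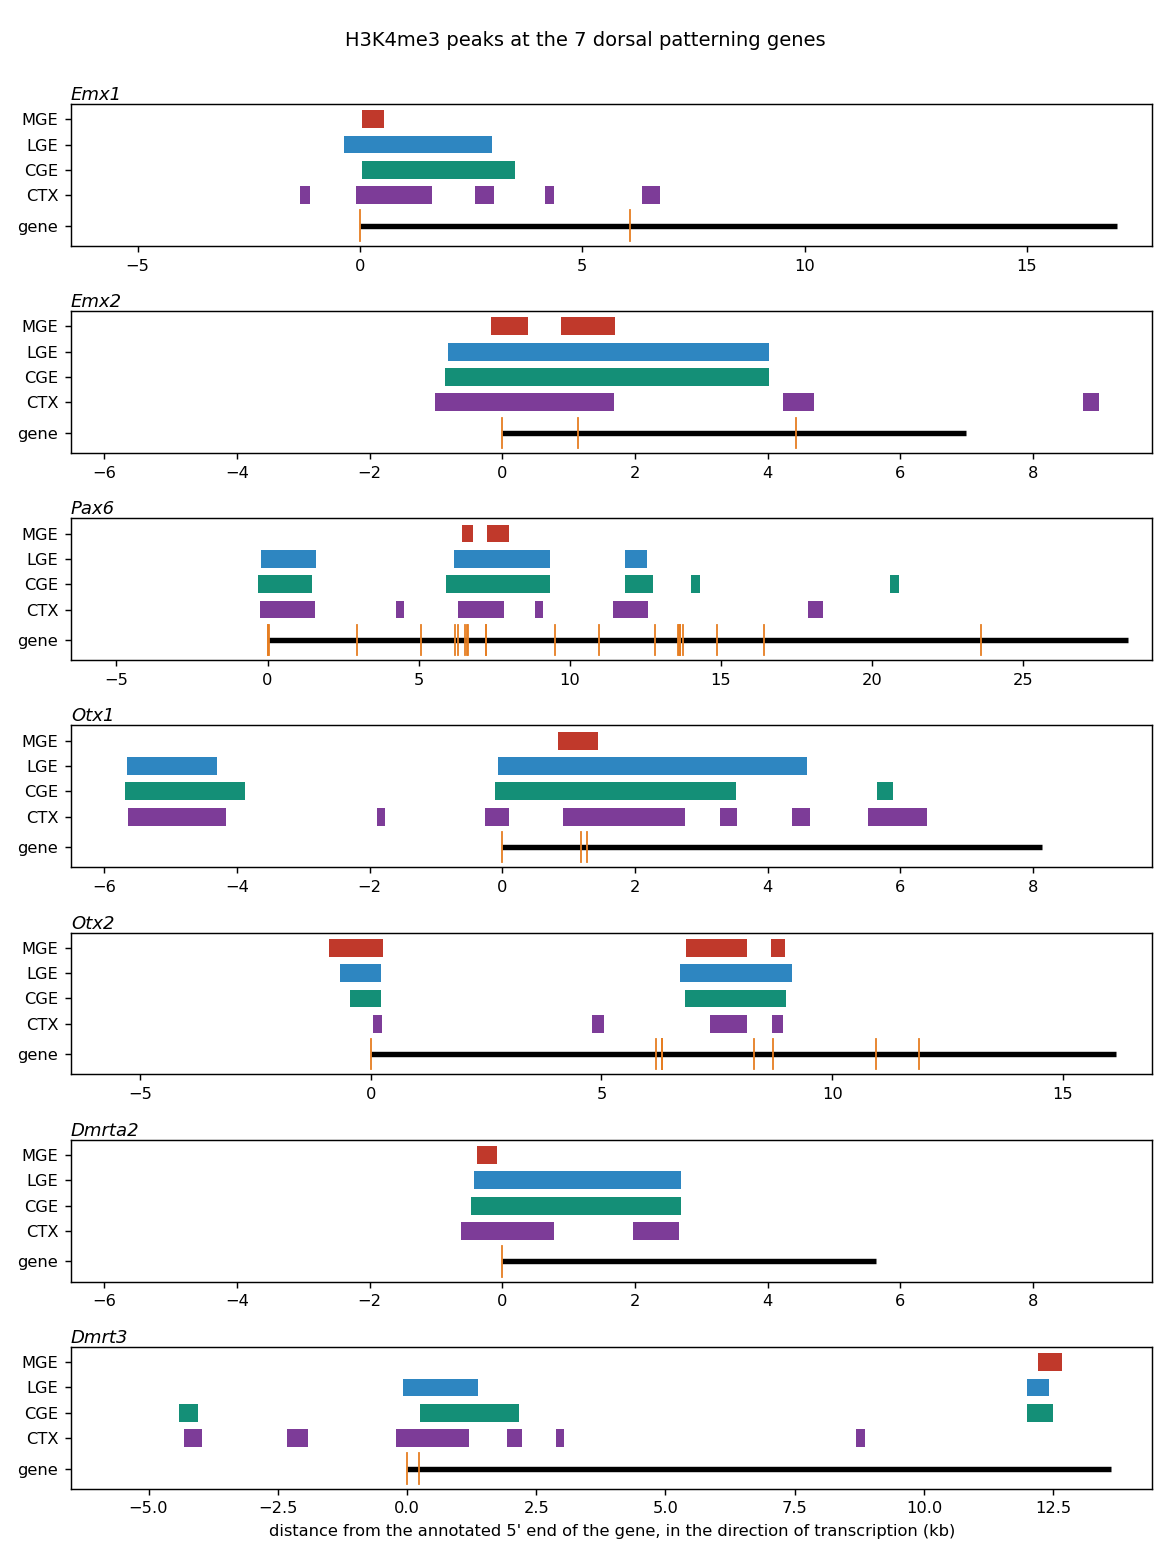
H3K4me3 peaks of the MGE, LGE, CGE and CTX lists (coloured bars) at each of the 7 genes, against distance in kb from the annotated 5′ end in the direction of transcription. The black line is the gene and orange ticks are annotated TSSs. MGE peaks are few and short except at Otx2, LGE and CGE share long peaks over or beside the 5′ ends except at Otx2, and CTX peaks are split into shorter pieces.

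Emx1, the homeobox gene widely used as a marker of pallial progenitors and their neurons, lies at chr6:85187438-85204462 on the plus strand and has 2 annotated TSSs. It had a single peak in MGE, LGE and CGE, 495, 3337 and 3453 bp wide, and 5 peaks in CTX of 213, 1707, 432, 211 and 406 bp. The CTX peaks were strung over 8096 bp, from 1342 bases upstream of the 5′ end to coding sequence 6753 bases inside, so similar totals in LGE, CGE and CTX came from differently shaped coverage. The 5′ end itself was under a peak in LGE and CTX only. In MGE the peak began 49 bases and in CGE 36 bases inside the gene, over 5′ UTR and coding sequence. The start that RefSeq gives for Emx1 lies further inside and was under a peak in all 4 lists. The MGE peak had a −log10 q of 1.72, at the 22.1 percentile of its list, and it was lost when a minimum of 2 was asked for. The within-list percentile was 41.8 in MGE, 97.2 in LGE and 96.8 in CGE, and 98.5 in CTX. MGE stood apart and the other 3 lists lay close together.

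Emx2, the paralogue that is graded across the cortical sheet and helps to set caudal and medial areas, lies at chr19:59458372-59465357 on the plus strand and has 3 TSSs. Its covered bases were 1359 in MGE, 4839 in LGE and 4893 in CGE, with 3421 in CTX, or 9.42%, 33.5%, 33.9% and 23.7% of the window. In LGE and CGE they formed a single peak from upstream of the 5′ end to 4024 bases inside the gene, reaching coding sequence. It was wider than 99.9% of LGE peaks and 99.9% of CGE peaks. In MGE the same stretch held separate peaks of 549 and 810 bp, over the first and the second TSS. CTX had a peak of 2692 bp over both, 1 of 475 bp over the third TSS, and 1 of 254 bp downstream of the gene. Only in the CTX list were all 3 TSSs under a peak. Its percentiles were 80.8, 99.5, 99.2 and 99.2 in MGE, LGE, CGE and CTX, and MGE was again the lowest. The antisense transcript Emx2os starts 263 bases from an Emx2 TSS, and the mark there cannot be assigned to either gene.

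Pax6, the paired-box homeobox gene of cortical radial glia and of the eye, lies at chr2:105668900-105697364 on the plus strand and has 24 annotated TSSs. Its covered bases were 1062 in MGE, 5724 in LGE and 6739 in CGE, and 5534 in CTX, in 2, 3, 5 and 6 peaks. Only 9 protein-coding genes were more covered than Pax6 in CTX, against 49 in LGE, 36 in CGE and 6949 in MGE. The many TSSs widen its window to 33584 bases, and by the share of the window covered its percentile was 48.3 in MGE, 92.8 in LGE and 94.7 in CGE, with 96.6 in CTX.

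The start sites of Pax6 differed between the lists. The most upstream starts, which lie within 35 bases of each other and close to the start of the antisense Pax6os1, were under a peak of 1818 bp in CTX, 1810 bp in CGE and 1806 bp in LGE, and under none in MGE. Around the starts 6209 to 7229 bases further in, MGE had a peak of 358 bp among them and 1 of 704 bp that began 44 bases beyond the last, while LGE had a peak of 3179 bp, CGE 1 of 3446 bp and CTX 1 of 1517 bp. The MGE peak of 704 bp had a −log10 q of 1.34. An intronic peak about 12 kb inside the gene was present in LGE (739 bp), CGE (907 bp) and CTX (1147 bp) and not in MGE. A further intronic peak of 498 bp, 17873 bases from the 5′ end, was in the CTX list only. It had the highest fold of the gene's CTX peaks, 4.44. A peak of 276 bp, 4249 bases from the 5′ end, was also in CTX only. Peaks of 300 and 276 bp, 14005 and 20602 bases from the 5′ end, were in CGE only. The long noncoding RNA Paupar, upstream of the gene, had 1580 covered bases in CGE, 757 in CTX and none in the other lists. Of the 24 TSSs, 3 were under a peak in MGE, 10 in LGE and 10 in CGE, with 8 in CTX.

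**Figure D2:**
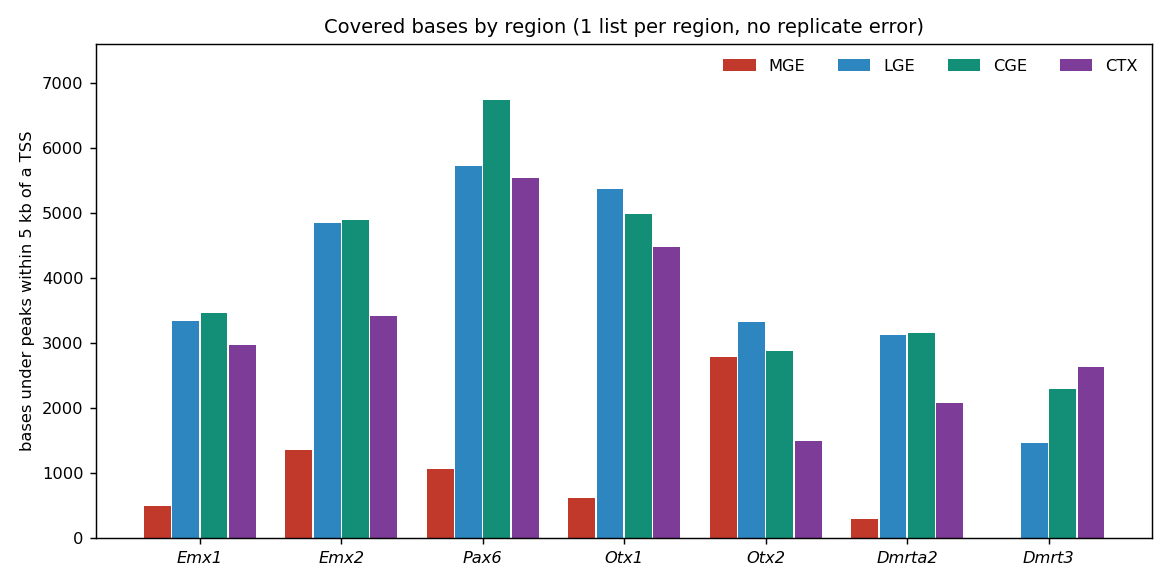
Bases under H3K4me3 peaks within 5 kb of a TSS (bars, starting at 0) for the 7 genes in the 4 lists; a bar is 1 list, without replicate error. MGE is the lowest bar for every gene except Otx2, where CTX is the lowest at 1494 bases, and Dmrt3 has no MGE bar.

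Otx1, which is needed for normal growth of the cortex, lies at chr11:21994764-22002897 on the minus strand and has 3 TSSs. Its covered bases were 609 in MGE, 5361 in LGE and 4985 in CGE, and 4469 in CTX. As a share of the window they came to 5.40%, 47.5%, 44.2% and 39.6%, the largest of the 7 genes in LGE, CGE and CTX. MGE had a single peak of 609 bp over the 2 inner TSSs and none over the 5′ end. LGE had a peak of 4663 bp and CGE 1 of 3625 bp over all 3 TSSs. CGE also had a peak of 243 bp in coding sequence. CTX had 7 peaks of 124 to 1845 bp, counting the upstream peak described next. A separate upstream peak (LGE 1361 bp, CGE 1808 bp, CTX 1468 bp) had its near edge 4303, 3884 and 4170 bases before the 5′ end, lay partly outside the 5-kb window and was missing from MGE. No annotated gene start lies under it, and 300 bases shared by its forms are printed above. Its percentiles were 45.3, 99.7, 99.3 and 99.8, with MGE far below the rest.

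Otx2, which acts in early forebrain and midbrain and is later associated with the diencephalon, cortical hem and choroid plexus, went the other way. It lies at chr14:48657677-48673819 on the minus strand and has 10 TSSs. Its covered bases were 2791 in MGE, 3320 in LGE and 2877 in CGE, and 1494 in CTX, in 3, 2, 2 and 4 peaks. Its percentile was highest in MGE at 98.3 against 97.2 in LGE and 94.1 in CGE, with 83.7 in CTX. Otx2 was the only gene of the 7 whose CTX value was the lowest, on both scales.

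The difference at Otx2 showed at both of its marked places. Around the 5′ end the peak was 1158 bp wide in MGE, 894 bp in LGE and 676 bp in CGE, all over the TSS. In CTX it was 197 bp and began 39 bases inside the gene, so the 5′ end was left without a peak. The 4 RefSeq starts of Otx2 used here all lie further inside the gene. At the inner starts MGE had peaks of 303 and 1330 bp, LGE 1 of 2426 bp, CGE 1 of 2201 bp, and CTX 2 of 233 and 810 bp. CTX also had a peak of 254 bp over the start of the long noncoding RNA Otx2os1, with a −log10 q of 1.46. The 5 starts 6175 to 6311 bases from the 5′ end, among them 2 that RefSeq also lists, were under no peak in any list. The lncRNA Otx2os1 and the transcript Gm49154 start 153 and 80 bases from Otx2 TSSs, and the mark there is shared with them.

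Dmrta2, also called Dmrt5, acts in the cortical hem and in progenitors of the medial cortex. It lies at chr4:109978053-109983687 on the plus strand with 1 TSS. Its covered bases were 297 in MGE, 3117 in LGE and 3156 in CGE, and 2081 in CTX, or 2.97%, 31.2%, 31.6% and 20.8% of the window. The MGE peak lay between 374 and 78 bases upstream of the TSS, over the start of the antisense transcript Dmrta2os, and touched no base of the gene. LGE and CGE each had 1 peak from upstream into the gene, reaching coding sequence. CTX had a peak of 1401 bp over the TSS and 1 of 680 bp in coding sequence. The fold of the MGE peak was 5.65, the highest of the 7 genes' MGE peaks. The percentile was 38.4 in MGE, 96.5 in LGE and 95.6 in CGE, with 94.0 in CTX, while ranked by its strongest peak's fold it was 59.0 in MGE and 47.4 in CTX. Coverage and fold thus ranked MGE and CTX in opposite orders for this gene.

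Dmrt3, which acts with Dmrta2 in keeping dorsal progenitors from a ventral fate, lies at chr19:25610301-25623921 on the plus strand and has 2 TSSs. It had 0 covered bases in MGE, 1460 in LGE and 2287 in CGE, and 2629 in CTX, in 0, 1, 2 and 5 peaks. The percentile was 17.5 in MGE, where it ties with every gene without a peak, 70.1 in LGE and 88.4 in CGE, with 97.6 in CTX. It was the gene with the widest spread between lists. Both TSSs were under a peak in LGE (1460 bp) and CTX (1416 bp), while the CGE peak of 1914 bp began 19 bases beyond the second TSS. A peak about 4 kb upstream was called in CGE (373 bp) and CTX (351 bp). In the last exon, about 12 kb from the starts, peaks of 464 bp in MGE, 422 bp in LGE and 501 bp in CGE lay over coding sequence, and CTX had none there. The MGE peak had a −log10 q of 1.95, at the 26.2 percentile of its list and below the alternative minimum of 2. The MGE list thus held a peak in the body of Dmrt3 and none at its starts. The neighbouring paralogues on the chromosome differed from it: Dmrt1, known for its role in the testis, had no peak in any list, and Dmrt2 had 210 covered bases in MGE, 773 in LGE and 1703 in CGE, and 710 in CTX.

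**Figure D3:**
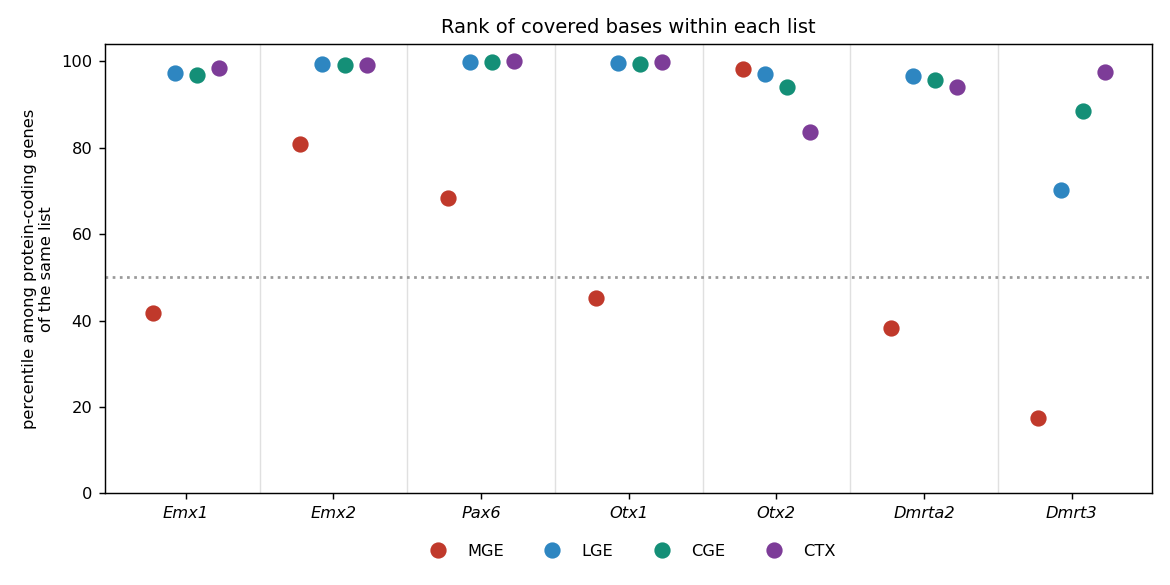
Percentile of each gene's covered bases among 21951 protein-coding genes of the same list (points, 1 per list), with the dotted line at 50. MGE points lie between 17.5 and 80.8 for every gene but Otx2, and LGE, CGE and CTX points lie above 90 except for Otx2 in CTX and Dmrt3 in LGE and CGE.

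Set against MGE, CTX covered more of 6 of the 7 genes. Covered bases were at least 2-fold higher in CTX for Emx1, Emx2, Pax6, Otx1, Dmrta2 and Dmrt3 (4.58% of 14638 protein-coding genes with a peak in either list) and at least 2-fold lower for none of the 7 (6.26%). The ratio of CTX to MGE was 7.34 for Otx1, 7.01 for Dmrta2, 6.00 for Emx1, 5.21 for Pax6 and 2.52 for Emx2. On the log2 scale these are 2.88, 2.81, 2.58, 2.38 and 1.33, against a median of 0.03 over 13644 genes with a peak in both lists. No ratio is given for Dmrt3, which has no MGE peak. Otx2 had a ratio of 0.535, or −0.90 on the log2 scale. The ranks went the same way except under 1 measure: when genes were ranked by their strongest peak's fold, the CTX minus MGE difference in percentile was −0.72 for Emx1, −6.56 for Emx2, −16.4 for Otx1 and −11.6 for Dmrta2. With covered bases it was 56.7, 18.4, 54.5 and 55.6 for these genes.

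Against LGE and CGE the CTX values stood much closer, and they use the same CTX list as the comparison with MGE. The ratio of CTX to LGE was 0.890 for Emx1, 0.707 for Emx2, 0.967 for Pax6, 0.834 for Otx1, 0.450 for Otx2, 0.668 for Dmrta2 and 1.80 for Dmrt3. None of the 7 was at least 2-fold higher (2.58% of genes with a peak in either list), and 1, Otx2, was at least 2-fold lower (11.7%). The ratio of CTX to CGE ran from 0.519 for Otx2 to 1.15 for Dmrt3, with none of the 7 at least 2-fold higher (2.36%) and none at least 2-fold lower (15.6%). Over genes with a peak in both lists of a comparison, the median log2 ratio was −0.34 for CTX to LGE and −0.44 for CTX to CGE, so a gene at the median was itself less covered in CTX. Relative to those medians, Emx1, Pax6, Otx1 and Dmrt3 lay above and Otx2, Emx2 and Dmrta2 below, in both comparisons.

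The list that covered most bases depended on the scale. In bases it was CGE for 4 of the 7, Emx1, Emx2, Pax6 and Dmrta2 (72.7% of genes with a peak in any list), LGE for 2, Otx1 and Otx2 (16.3%), CTX for 1, Dmrt3 (4.99%), and MGE for 0 (4.88%). As a within-list percentile it was CTX for 4, Emx1, Pax6, Otx1 and Dmrt3 (31.4%), LGE for 2, Emx2 and Dmrta2 (18.5%), MGE for 1, Otx2 (32.9%), and CGE for 0 (17.2%). The differences among LGE, CGE and CTX behind these orders were small for most of the genes, under 2 percentile points for Emx1, Emx2, Pax6 and Otx1. The number highest in CTX was 6 with a window of 10 kb, 2 with peaks of at least 500 bp, 2 with the 5′ end alone and 1 when genes were ranked by their strongest peak's fold.

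The same peaks and windows were also split base by base, which restates the covered bases and adds no separate support. The peaks of any list covered 36037 bases near the TSSs of the 7 genes, of which 13.3% were in all 4 lists, against 55.2% over all protein-coding genes. Bases in LGE, CGE and CTX but not MGE made up 30.2% (6.05% over all genes), bases in LGE and CGE only 21.5% (17.7%), and bases in CTX only 13.8% (1.71%). Bases in MGE only came to 244, or 0.677% (1.63%), and all of them belonged to Otx2. The share in CTX only was highest for Dmrt3, 24.4%, and lowest for Dmrta2, 4.49%. CTX and MGE shared 19.7% of the bases that either covered at the 7 genes (78.3% over all genes), whereas LGE and CGE shared 80.3% (87.4%). Among the pairs given here, CTX with LGE shared 49.5% (68.7%) and CTX with CGE 49.2% (64.7%).

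**Figure D4:**
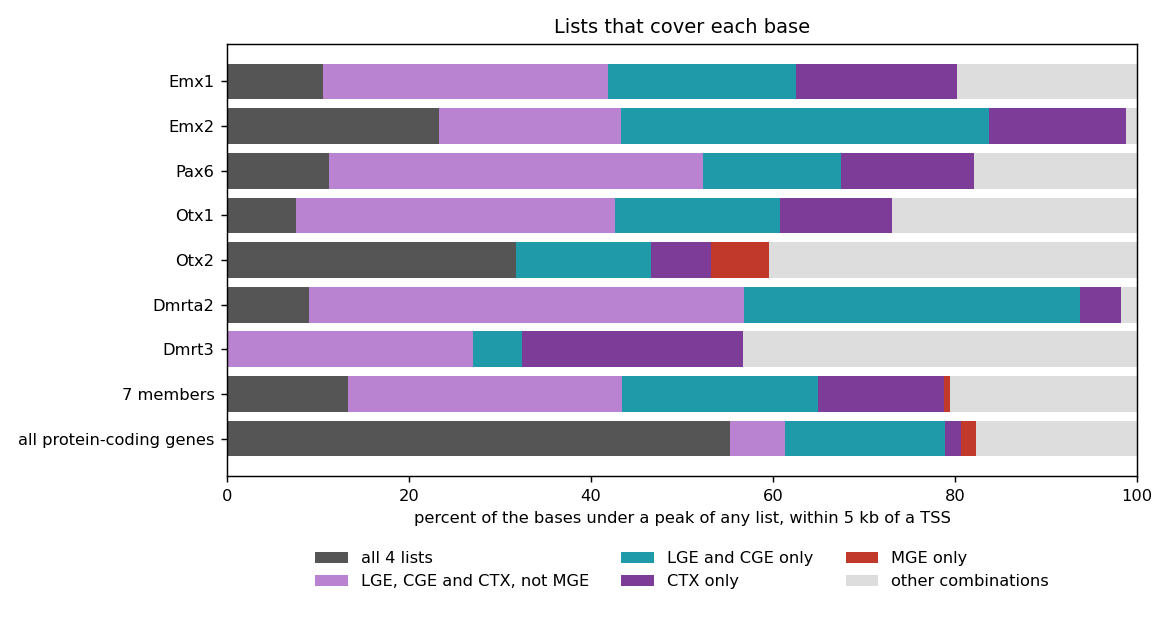
Bases near the TSSs that lie under a peak of any list, split by the lists that cover them, as percent per gene, for the 7 genes together and for all protein-coding genes. The share in all 4 lists is 13.3% for the 7 genes and 55.2% for all genes, and MGE-only bases appear at Otx2 alone among the 7.

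The peaks of these genes were low in fold for their lists, and wide for them in LGE and CGE. The fold enrichment, the authors' ratio of signal to the background estimated by the peak caller, had a median of 4.08 over the 10 peaks near TSSs in MGE (list median 4.59), 2.69 over 11 in LGE (5.63) and 2.57 over 15 in CGE (5.81), with 2.75 over 32 in CTX (5.08). It lay below the median of its list for 8 of 10 peaks in MGE, 11 of 11 in LGE and 15 of 15 in CGE, and 32 of 32 in CTX. Median widths were 579 bp in MGE, 2426 bp in LGE and 1810 bp in CGE, with 408.5 bp in CTX, so that in CTX the pieces were shorter than the list's median while in LGE and CGE they were longer. A marked gene of the 7 had 1.67 peaks on average in MGE, 1.57 in LGE and 2.14 in CGE, and 4.57 in CTX, against 1.33, 1.20, 1.21 and 1.29 for all marked protein-coding genes. At least 2 peaks were found at 3 of 6 marked genes in MGE (24.8%), 3 of 7 in LGE (16.5%) and 4 of 7 in CGE (17.3%), with 7 of 7 in CTX (22.4%).

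The windows of the 7 genes were rich in CpG dinucleotides. CpGs per kb of window ran from 23.5 at Otx2 to 50.5 at Dmrta2, between the 92.3 and the 99.97 percentile, against a median of 13.3 over protein-coding genes. Otx1 had 41.0, Dmrt3 35.5, Emx2 31.6, Pax6 26.0 and Emx1 25.1. Otx2, with the lowest CpG density of the 7, had the least coverage in CTX, 1494 bases, and the most in MGE, 2791. Dmrta2, with the highest density, had 2081 bases in CTX and 297 in MGE. Otx1, with the next highest density, had 4469 in CTX and 609 in MGE. The other genes did not follow the order of density. In CTX and MGE, Emx1 had 2969 and 495, Pax6 5534 and 1062, Emx2 3421 and 1359, and Dmrt3 2629 and 0. A relation between density and coverage was not tested. The windows also differed in width, from 10001 bases at Dmrta2 to 33584 at Pax6. In RefSeq promoters of GRCm38.p6, 300 bases long, 6 of the 7 genes were matched with 10 promoters, and Otx1 was not. Their observed over expected CpG ran from 0.463 to 0.998 with a median of 0.768, against 0.384 over 32851 promoters. Searching both strands, TAATTA was found in 3 of the 10 (5.29% of all promoters), 1 of Emx2 and 2 of Otx2, TAATCC in 1 of Otx2 (7.06%) and TATAAA in 1 of Otx2 (13.6%). The last is the core of the TATA box. TAATTA and TAATCC share only their first letters and cannot fill the same 6 bases.

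Other factors of the pallium and subpallium place these values. Of 18 further pallial genes, 16 had a peak in MGE, 17 in LGE and 17 in CGE, and 18 in CTX, and 8 were at least 2-fold more covered in CTX than in MGE and 0 at least 2-fold less. Their median CTX minus MGE difference in percentile was 10.1 points, with 14 above 0 and 4 below. The highest were Tfap2c, a factor of cortical progenitors, at 79.1 points (0 bases in MGE and 2430 in CTX), and Fezf2, a determinant of deep-layer projection neurons, at 62.8 points (180 and 3644). The lowest was Wnt2b, a ligand of the cortical hem, at −11.7 points. Of 16 subpallial genes, 12 were at least 2-fold less covered in CTX than in MGE and 0 more, and the median difference was −53.4 points with 1 above 0 and 15 below. The lowest were Nkx2-1, which specifies the MGE, at −81.1 points, and Lhx8, a factor of cholinergic neurons, at −76.3. The highest was Ebf1, a factor of striatal neurons, at 3.16 points. For the 7 dorsal genes the median was 54.5 points with 6 above 0 and 1 below, and over 14900 protein-coding genes with a peak it was −0.057.

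**Figure D5:**
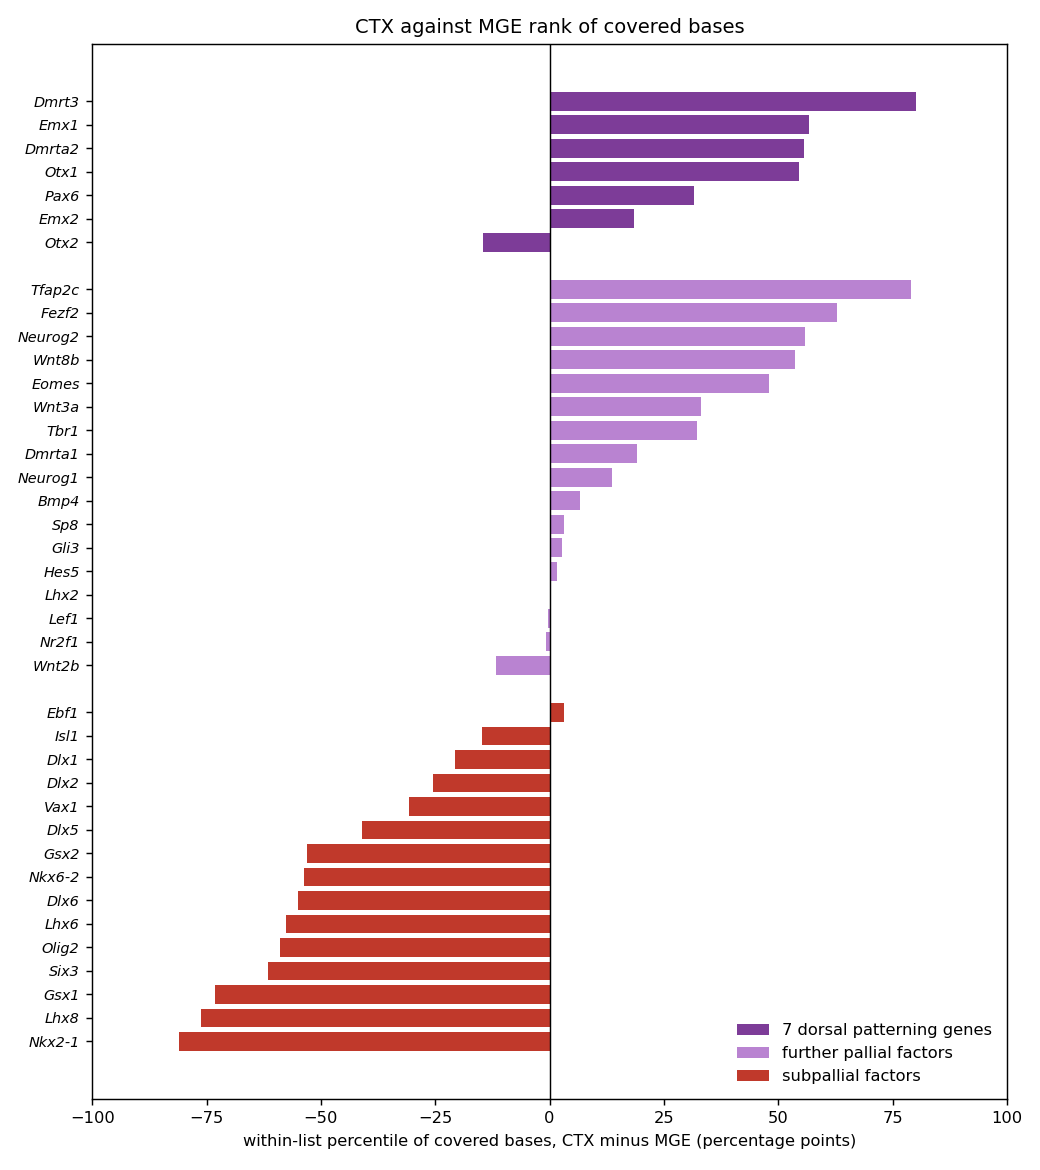
Difference between CTX and MGE in the within-list percentile of covered bases (bars, percentage points) for the 7 dorsal genes, 17 of the 18 further pallial and 15 of the 16 subpallial factors, each bar 1 gene. The bars of the 7 point to CTX except that of Otx2, and those of the subpallial factors point to MGE except that of Ebf1.

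Marker genes were read from the same lists to check the regions. The 3 MGE markers (Nkx2-1, Lhx6, Lhx8) were all marked in MGE, LGE and CGE, and 1 of 3 was marked in CTX, with summed covered bases of 8385, 7853, 12214 and 451. The 4 cortical markers (Neurod6, Neurod2, Tbr1, Eomes) had a peak in every list, with sums of 1340 in MGE, 9164 in LGE and 8959 in CGE, with 5022 in CTX. The summed coverage of the cortical markers was thus lowest in MGE and higher in LGE and CGE than in CTX, the order also seen for Emx1, Emx2, Pax6, Otx1 and Dmrta2. Neurod6 by itself went another way, with 328 bases in MGE, 1132 in LGE and 584 in CGE, and its lowest value, 242, in CTX. By within-list percentile Neurod2 was highest in CTX (92.0) and Neurod6, Tbr1 and Eomes in LGE (54.5, 95.4 and 95.1). In its single-nucleus chromatin accessibility data, the study found LGE and CGE nuclei resembling glutamatergic neurons, and none of these in MGE. It regarded them as probable contamination from the border of pallium and subpallium. What part such cells, or other cortical cells, in the LGE and CGE samples have in these values was not tested. The 3 diencephalic markers (Gbx2, Barhl2, Irx3) were marked in all lists with sums of 766, 5850, 9521 and 2094, and did not share the order of Otx2. Of the cortical hem and choroid plexus markers, Ttr had no peak in any list, and the set summed to 575, 1801, 2228 and 2663, highest in CTX, where Otx2 was lowest. The 3 microglial and 3 red blood cell markers were at 0 in every list. Of the 3 endothelial markers, 2 had a peak in MGE and 1 in each other list (sums 663, 918, 954 and 608), and of the 3 meningeal markers 3, 2, 3 and 3 did (1549, 2529, 3648 and 1587). The 3 LGE markers (Gsx2, Isl1, Ebf1) and the 3 CGE markers (Nr2f2, Prox1, Sp8) all had a peak in every list. In summed bases both sets were covered most in CGE (11268 and 18658) and least in CTX (1610 and 7085). Nr2f2 alone gave 12460 of the 18658. These sums carry the wider peaks of LGE and CGE, and 72.7% of genes with a peak in any list were most covered in CGE. By within-list percentile Isl1, Ebf1, Nr2f2 and Prox1 were highest in CGE (98.6, 99.2, 99.99 and 92.1). Gsx2 was highest in MGE (92.9) and Sp8 in CTX (99.1).

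The genes whose 4 percentiles lay nearest were found by Euclidean distance over the 4 lists, among all protein-coding genes. For Otx1 they were Alcam, a cell adhesion molecule, at a distance of 1.85 points, and Emx1 at 5.13. For Emx1 they were Alcam at 4.45 and Zic5 at 5.05, and for Dmrta2 Zic5 at 5.55 and Emx1 at 5.87, so Emx1 was among the genes nearest to both Otx1 and Dmrta2. Emx2 was nearest to Tgif1 (3.42) and Prdm8 (4.75), Pax6 to Lix1l (6.52) and Tenm1 (6.65), and Otx2 to Hdac9 (1.85) and Utrn (3.30). Dmrt3 had no near neighbour on this measure: Tfap2c stood at 21.7 points and Kif19a at 25.8. These distances describe 4 pooled lists and carry no test.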

How the data were processed

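H3K4me3 CUT&Tag was measured in MGE, LGE, CGE and CTX. The authors mapped their reads to GRCm38/mm10 using Bowtie2, discarded blacklisted regions and duplicates (Picard), merged replicates with SAMtools and called broad peaks with MACS. The MACS version, threshold and control are not given in the sources used here. The deposited lists have 9 columns without a header: positions, a name, the authors' score, their fold enrichment (a ratio to local background), and the authors' −log10 p (not used here) and −log10 q. Fold and q grow with depth and were compared only within a list. The read depth behind a peak is unknown, so no interval could be given.

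Peaks sharing at least 1 bp with 5 kb either side of any GENCODE M21 TSS were assigned to a gene, and bases under them inside that window were counted. Percentiles are mid-ranks among 21951 protein-coding genes of the same list. Fold calls used 2-fold. No test was possible. Named genes were the 7 members, genes with a TSS within 10 kb or overlapping them with Dmrt1 and Dmrt2, the extreme genes of the pallial and subpallial lists, markers, and the 2 nearest genes by percentile. Single values of 1 pallial and 1 subpallial gene are not reported here; both enter the counts and medians. The genes and lists were chosen with earlier results of these data known. Python 3.11.15, numpy 2.4.6, pandas 2.3.3, scipy 1.17.1 and matplotlib 3.10.9 were used, and interval arithmetic was tested on simulated data. Alternatives were lists of equal size (17284 peaks by highest −log10 q), a −log10 q of 2 or more, a width of at least 500 bp, joining peaks under 1 kb apart, windows of 2 and 10 kb, other TSS choices, the gene body added, scaling to the list's median, and other rankings. A TSS itself under a peak and leaving out the MGE list were added after seeing the data.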

Additional observations from a re-analysis of the deposited data

How the results depend on the processing

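Of 114 counts recomputed under the alternatives, 100 stayed within 1.5 times the reported count. The number of the 7 genes covered at least 2-fold more in CTX than in MGE stayed at 5 or 6. The number covered at least 2-fold less in CTX than in MGE, 0 as reported, became 1 with a −log10 q of at least 2, with equal list sizes, with peaks of at least 500 bp and with the 5′ end alone. With peaks joined, and with scaling to the list's median, the number at least 2-fold higher in CTX than in LGE went from 0 to 1 and the number at least 2-fold lower from 1 to 0. The number at least 2-fold lower in CTX than in CGE went from 0 to 1 with a −log10 q of at least 2 and with equal list sizes, and to 2 with peaks of at least 500 bp. The number with the highest percentile in CTX went from 4 to 6 with a window of 10 kb, to 2 with peaks of at least 500 bp, to 2 with the 5′ end alone, and to 1 with the highest fold of a peak. The causes were not tested. The log2 ratio of CTX to MGE ranged from 2.36 to 2.99 for Emx1, 0.88 to 1.79 for Emx2, 1.84 to 3.88 for Pax6, 1.94 to 3.62 for Otx1, 2.26 to 3.24 for Dmrta2 and −3.82 to −0.71 for Otx2 over the alternatives that gave a value.

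No paired analysis was possible because each region is a single list merged over its replicates, and for the same reason no replicate was left out in turn. The spread between replicates is therefore unknown, and peak edges have no error. Expression and other marks were not analysed here.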
